A study of Caenorhabditis elegans with 2 samples.

Results

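The regions described here carried strong immunoprecipitation signal in a ranking built from both replicates, yet none of them overlapped the thresholded list that the authors deposited beside that ranking. They were chosen by 2 values: a signal of 60 or more in the joint ranked list, and no overlap, not even of 1 bp, with the joint thresholded list. Of 118176 ranked regions, 509 (0.431%) had a signal of 60 or more. Of those 509, 273 overlapped the thresholded list and 236 did not, and these 236 are called left-out regions below. Signal and absence from the list were used in the choice and are therefore given as description. The weakest left-out regions had signals of 60.03, 60.06 and 60.1, and the strongest unlisted regions just under the limit had 59.92, 59.94 and 59.95.

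The signal came from chromatin immunoprecipitation and sequencing of whole Caenorhabditis elegans larvae at stage L4, 66 hours old, that had been synchronised by bleaching and starvation at L1. The strain, OP719, carried the transgene wgIs719, in which tag-97 is fused to TY1, EGFP and 3xFLAG beside an unc-119(+) rescue marker, in an unc-119(tm4063) background. An anti-GFP antibody was used on chromatin sheared to 200 to 800 bp, and the labels give svh-5 as the gene that the insertion targets. There were 2 biological replicates of this 1 group, no second genotype or untagged strain was analysed here, and whole animals mix all tissues. All values are the authors' region lists on the ce11 build, the read depth behind them is unknown, and no test over samples was possible.

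The irreproducible discovery rate, IDR, scores whether a region holds its rank between a pair of inputs, and lists are usually thresholded on it. Tandem repeats are runs of one short unit copied head to tail. In worms they include minisatellites, spliced leader and ribosomal RNA arrays, and repeats within coding exons. Where the assembly holds fewer copies of a repeat than the animal does, reads from all its copies pile up on those present, and this happens with and without an antibody. The deposited lists hold no per-region control value with which that could be measured here, so its part in the results below was not tested.

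Stretches of 200 bases around the summits of 10 left-out regions show what many of these regions are made of. All are from the plus strand of the RefSeq assembly of the same build. They are the strongest regions of 6 clusters, taken in order of size, and of the sequence families with 4 or more left-out regions, after 1 chromosome was set aside. That chromosome holds the largest cluster of all, and the peak of the family shown in the fourth line. In the first 7 lines the capitals mark 1 repeat unit, chosen as the copy most like the next one. In the 2 lines after them they mark both copies of the longest stretch present more than once, and in the last line, a region with no such repeat, the 20 bases at the summit.
chrX:15811008-15811207: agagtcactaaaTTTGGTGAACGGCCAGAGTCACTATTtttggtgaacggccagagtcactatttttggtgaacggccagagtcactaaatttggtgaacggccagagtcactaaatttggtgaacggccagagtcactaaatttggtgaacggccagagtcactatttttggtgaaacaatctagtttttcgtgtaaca
chrV:5284064-5284263: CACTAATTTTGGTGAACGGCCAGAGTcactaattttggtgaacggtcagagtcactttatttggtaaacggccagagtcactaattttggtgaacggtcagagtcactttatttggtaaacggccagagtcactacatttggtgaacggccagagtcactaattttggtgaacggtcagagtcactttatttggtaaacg
chrIII:1299865-1300064: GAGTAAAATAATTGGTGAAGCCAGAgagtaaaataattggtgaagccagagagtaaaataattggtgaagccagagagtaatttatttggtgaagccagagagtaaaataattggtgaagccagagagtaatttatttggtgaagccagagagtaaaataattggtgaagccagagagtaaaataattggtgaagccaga
chrX:12277937-12278136: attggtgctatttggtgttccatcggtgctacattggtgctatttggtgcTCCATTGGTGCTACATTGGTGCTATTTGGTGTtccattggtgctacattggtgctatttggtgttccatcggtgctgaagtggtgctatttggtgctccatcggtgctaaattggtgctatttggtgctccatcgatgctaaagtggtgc
chrII:8292446-8292645: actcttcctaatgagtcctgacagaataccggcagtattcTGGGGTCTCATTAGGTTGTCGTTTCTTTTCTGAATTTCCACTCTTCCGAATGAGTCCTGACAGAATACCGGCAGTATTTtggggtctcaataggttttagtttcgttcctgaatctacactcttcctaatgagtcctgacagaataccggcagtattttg
chrIV:10945755-10945954: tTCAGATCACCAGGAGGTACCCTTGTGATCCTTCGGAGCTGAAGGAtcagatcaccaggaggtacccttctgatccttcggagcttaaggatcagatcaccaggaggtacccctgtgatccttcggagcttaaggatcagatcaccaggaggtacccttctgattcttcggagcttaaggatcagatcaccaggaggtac
chrIV:11075255-11075454: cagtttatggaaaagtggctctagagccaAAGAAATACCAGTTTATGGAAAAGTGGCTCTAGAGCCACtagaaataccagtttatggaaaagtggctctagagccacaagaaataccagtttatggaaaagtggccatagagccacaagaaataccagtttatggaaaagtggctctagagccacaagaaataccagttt
chrV:17310599-17310798: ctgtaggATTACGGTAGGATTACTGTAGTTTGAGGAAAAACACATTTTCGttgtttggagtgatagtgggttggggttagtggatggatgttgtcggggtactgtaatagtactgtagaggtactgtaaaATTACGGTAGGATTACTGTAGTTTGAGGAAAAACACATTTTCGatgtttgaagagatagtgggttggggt
chrX:293346-293545: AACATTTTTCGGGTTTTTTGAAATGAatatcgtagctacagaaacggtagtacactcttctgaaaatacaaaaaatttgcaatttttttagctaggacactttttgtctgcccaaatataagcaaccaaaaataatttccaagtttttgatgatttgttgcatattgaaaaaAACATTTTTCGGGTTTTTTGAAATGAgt
chrX:11481394-11481593: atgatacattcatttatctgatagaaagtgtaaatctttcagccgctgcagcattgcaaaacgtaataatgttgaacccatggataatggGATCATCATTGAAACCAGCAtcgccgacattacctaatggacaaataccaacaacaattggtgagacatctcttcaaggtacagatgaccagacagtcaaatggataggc
The unit of the first line, 26 bases long, was found at 96.2% identity in the second line, on another chromosome. The third line repeats a 25-base unit. The letters ATTTGGTGAA were the longest word shared by the repeats printed in lines 1 and 3, and were picked from them. Searched on both strands around each summit, they were present in all 5 regions of the family of line 1 and in 2 of the 16 of line 3. They were in 0 other left-out regions. Of the 273 strong regions on the thresholded list 1 had them (0.37%), and of 2354 weaker ranked regions 4 did (0.17%). The repeats of lines 4 to 7 have units of 32, 79, 45 and 39 bases. The capitals of lines 8 and 9 are 43 and 26 bases long.

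The 236 left-out regions fell into a pair of kinds by their own IDR. In 69 of them the joint IDR was 0.01 or less, the level that every region of the thresholded list met, against 0.335% of all ranked regions. The other 167 had an IDR above 0.01 and so did not meet it. The region nearest the line, at II:8075343-8075638 with a signal of 63.3, had an IDR of 0.01002. The threshold alone would thus have dropped the 167 and kept the 69. At an IDR of 0.05 (1.04% of all ranked regions) 211 of the 236 passed, and at 0.001 (0.077%) 39 did.

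The 69 were the stronger kind, which the split by IDR in part fixes, since a low IDR goes with a high rank. Their joint signal ran from 62.1 to 2069 with a median of 118, while that of the 167 ran from 60.03 to 89.4 with a median of 63.3, and that of the 273 listed strong regions from 60.2 to 264 with a median of 75.1. All 5 of the strongest regions in the ranking, 9 of the first 10 and 16 of the first 20 were left out. In the signal range of 300 or more there were 9 regions, and all 9 were left out.

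**Figure D1:**
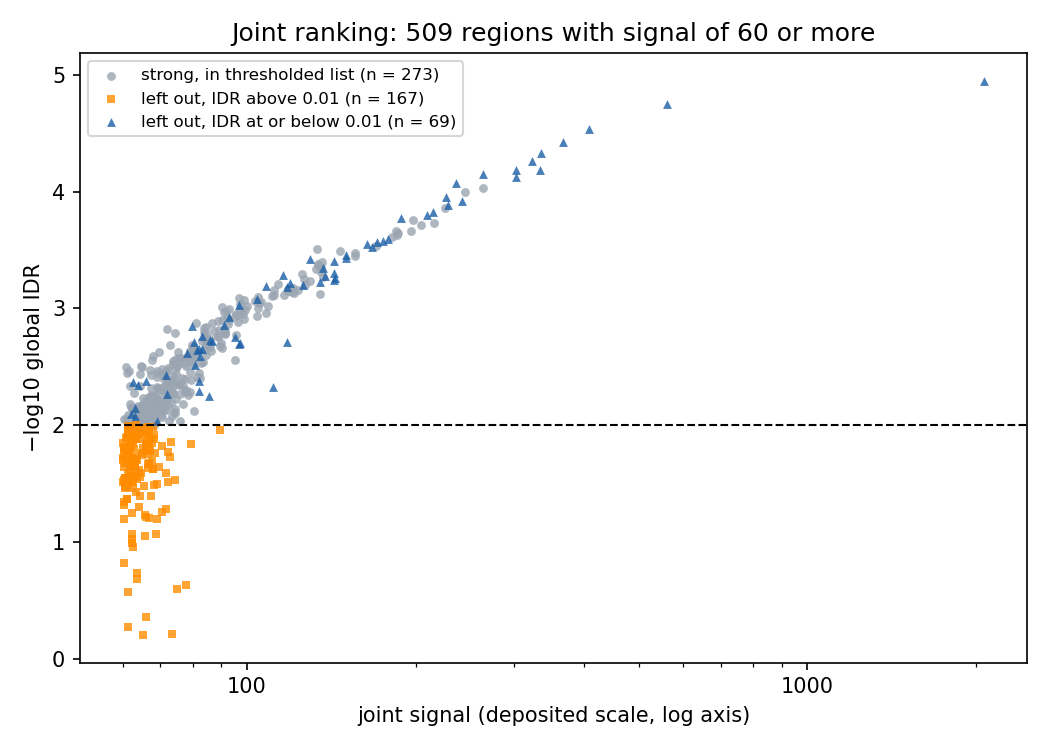
Joint signal (log axis) against −log10 of the joint IDR for the 509 ranked regions with signal of 60 or more; each point is a region and the dashed line is an IDR of 0.01. The 69 left-out regions above the line run up to a signal of 2069, past the 264 of the strongest listed region, and the 167 below it all have signals under 90.

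Tandem repetition separated the 69 from the rest. For each region, the 1000 bases around the summit were compared with themselves at every distance from 2 to 300 bases, and the highest share of matching bases was taken. The median was 79.9% for the 69, 32.2% for the 167, 32.9% for listed strong regions and 32.5% for 2354 weaker regions, every 50th of those under 60 in the ranking. A share of 60% or more, a limit set after these values were seen, was called tandem. By it, 58 of the 69 were tandem (84.1%), against 10 of 167, 13 of 273 and 24 of 2354 (1.02%). The exact 95% binomial interval of the 84.1% was 73.3% to 91.8%, counting error only. That interval takes regions as independent, although many share a cluster or a repeat. With 1 region per cluster the share was 86.7% (39 of 45).

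Read the other way, of the 71 strong regions that were tandem and met the IDR threshold, 58 were left out (81.7%). Of the 271 that met it and were not tandem, 11 were left out (4.06%). The gap was present within bands of signal. From 60 to under 80, 9 of 16 tandem and 2 of 160 other regions that met the threshold were left out. From 80 to under 100 the counts were 14 of 20 and 4 of 59. From 100 to under 150 they were 13 of 13 and 3 of 36, and from 150 to under 300 they were 13 of 13 and 2 of 16.

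The 13 tandem regions that stayed on the list had signals of 65.9 to 95.1. The strongest was a run of 45-base units at X:17442610-17442905, and the next lay in C30E1.9 at X:16932389-16932684 with a signal of 91.2. A pair lay in an intron of srw-100, a member of a chemoreceptor gene family (V:1712538-1712833 and V:1713838-1714133, signals 74.7 and 74.7).

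Other marks of repeated sequence moved with this one. The reference marks repeats in lower case, and the median share of such bases was 95.6% in the 69, 16.6% in the 167, 23.3% in listed strong regions and 25.5% in the weaker ones. All bases were so marked in 25 of the 69 and 5 of the 167. At 80% identity over 100 bases or more, 61 of the 69 aligned to 2 or more places in the genome (88.4%), against 37 of 167 (22.2%), 79 of 273 (28.9%) and 542 of 2354 (23%). The region IV:14780031-14780124, from the 69, is itself shorter than 100 bases, so its count of 1 place was all but fixed. The median number of places was 12 for the 69 and 1 for each other set. Alignments that overlapped or touched were merged into 1 place, so adjoining tandem copies count once and places are not copy numbers. Median GC content was 41.6% for the 69, 41.9% for the 167, 42.6% for listed strong regions and 37.5% for weaker ones.

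**Figure D2:**
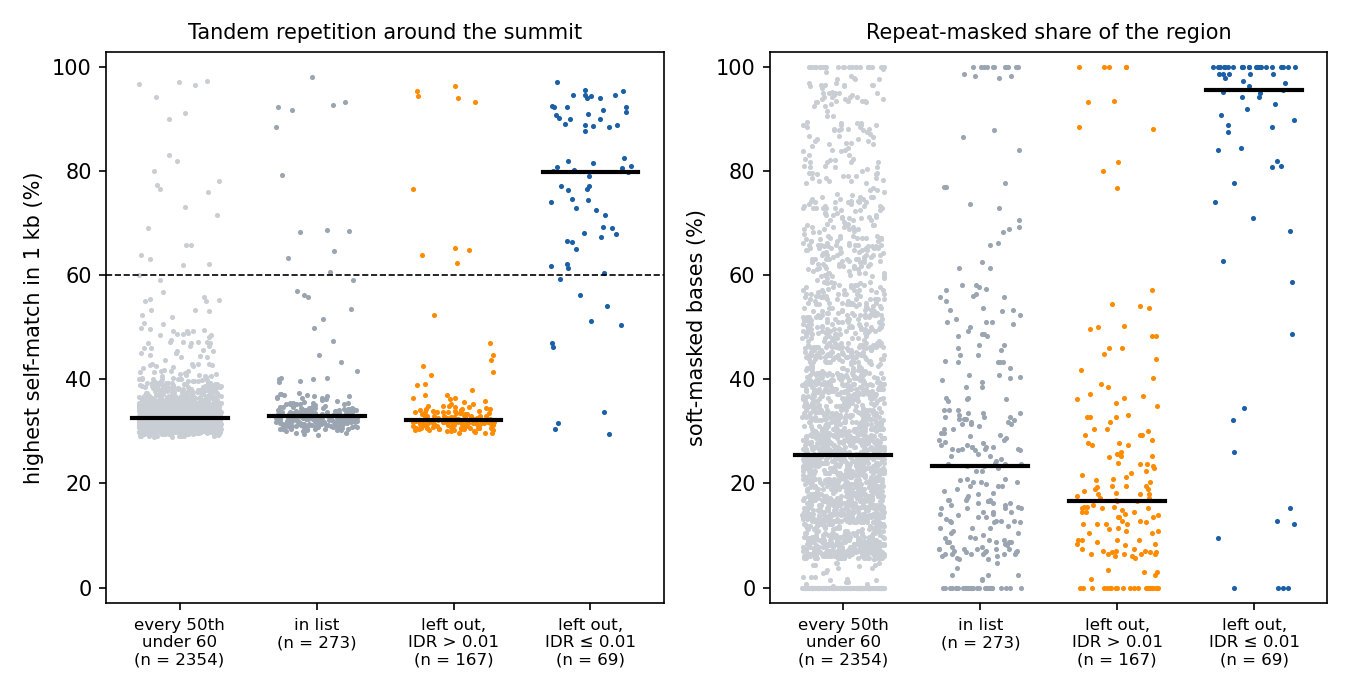
Highest self-match within 1 kb of the summit (left, %, dashed line at 60%) and soft-masked share of the region (right, %) for 4 sets of regions; each point is a region and the black bar is the median. The 69 left-out regions with IDR at or below 0.01 have medians of 79.9% and 95.6%, and the other 3 sets have medians of 32.9% or less and 25.5% or less.

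Many of the repeats were copies of each other. Regions of different clusters whose sequences aligned were chained into families, which gave 10 families holding 49 left-out regions, 42 of them among the 69. The largest family had 16 regions in 14 clusters on all 6 chromosomes, 15 of them with IDR at or below 0.01. All 16 were tandem with units of 25 to 27 bases, and each aligned to between 27 and 70 places. Joint signals in it ran from 62.5 to 333 with a median of 130.5. Its replicate 1 signals were 13.5 at the lowest, 65.9 at the median and 209.6 at the highest, and its replicate 2 signals 25.5, 57.6 and 145. Copies of one repeat thus spanned a wide range of signals in both replicates.

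The strongest member of that family is III:1299817-1300112, the third printed sequence, with a joint signal of 333 and 209.6 and 145 in replicates 1 and 2. It lay 1590 bp from the 5′ end of anr-53, an antisense RNA gene. The next, with the joint signal first and replicates 1 and 2 after it in each parenthesis here and below, were IV:2828825-2829120 (236; 107 and 131), IV:9047347-9047642 (228; 107 and 122), X:110357-110652 (215; 102.8 and 107) and II:14337706-14338001 (209.6; 87.7 and 101). The nearest 5′ ends to these 4 belonged to Y54G2A.48, Y73F4A.1, elk-2 and ddl-3, at 3714, 2143, 1476 and 6600 bp. All 5 lay above 100 in replicate 2, and none of the 5 was at a promoter.

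The family with the highest signals was the 26-base repeat of the first printed lines. It had 5 regions in 2 clusters, each aligning to 12 places. At X:15810938-15811174 the joint signal was 2069, with 994 in replicate 1 and 1200.1 in replicate 2, the highest value of each list. Its summit was 859 bp from the 5′ end of the pseudogene WBGene00044155. A second region lay nearby at X:15808131-15808268 with a joint signal of 407 and replicate values of 209.9 and 220.1. On V, the 3 regions were V:5284016-5284311 (335; 222 and 233), V:5284676-5284971 (264; 152 and 168) and V:5285358-5285653 (143; 82.6 and 53.2), upstream of Y49G5A.1. Both replicates put these 5 regions in the same order, and 4 of the 5 were higher in replicate 2.

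A family with units of 32 bases had 8 regions, 7 of them in 1 cluster on chromosome I and 1 at X:12277889-12278184. The signal at the last was 81.3, with 42.3 and 43.4 in the replicates. A family of 4 regions had a repeat distance of 172 bases near the left ends of X and V and was AT-rich, with a median GC content of 29.4%. Its strongest region, X:293353-293481, had a joint signal of 561 and replicate values of 218 and 342, lay 3788 bp from R57.2 and aligned to 48 places. Its other regions, at X:292032-292327, V:264889-265184 and V:265631-265926, had signals of 83.3, 111 and 116. A family of 4 regions on IV included IV:10945707-10946002 (302; 116 and 187) and IV:3366882-3367177 (241; 104 and 138), the latter 2167 bp from vha-19, a gene for a subunit of the vacuolar proton pump.

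Left-out regions within 10 kb of each other were chained, which gave 191 clusters, 165 of them a single region. The 26 clusters of 2 or more held 71 regions, 42 of them from the 69. Of these 26, 18 held a region from the 69 and 8 held none. Neighbouring summits within a cluster were 2013 bp apart at the median. The spans of the 45 clusters with a region from the 69 held 122 ranked regions and no listed one. The 69 lay a median of 257002 bp from the nearest listed summit, against 64443 bp for the 167 and 160432 bp for weaker regions.

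The largest cluster, I:10946018-10953058, had 7 regions over 7041 bp beside Y95D11A.4, a noncoding RNA gene, and 6 met the IDR threshold. Its peak, I:10947512-10947625, had a joint signal of 367 and replicate values of 159.9 and 210.1. The other 6 ran from 62.1 to 189. Replicate 2 was higher at all but I:10952763-10953058, where the values were 91.8 and 51.3.

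The cluster at II:8289320-8292693 had 5 regions over 3374 bp and units of 79 bases, and 4 met the threshold. It lay between cct-4, which encodes a chaperonin subunit, and nlp-55, a gene of a neuropeptide-like protein. Joint signals along it were 118, 175, 95.1, 69.2 and 226. Replicate 1 gave 46.6, 70.3, 66.1, 32.5 and 108, and replicate 2 gave 86.2, 101, 40.2, 18 and 130. The last region was the highest in both replicates and the fourth the lowest in both.

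At V:17309205-17311444 the 4 regions aligned to between 196 and 313 places, with joint signals of 81.9, 79.7, 143 and 66.4 upstream of Y61B8B.3. Replicate 1 gave 42.1, 34.5, 43.6 and 39.9 there, and replicate 2 gave 48.8, 51.5, 93.1 and 34.5. The third region was the highest in both, by little in replicate 1. Further clusters of 3 lay at I:4542669-4547378 near Y119C1B.3 (strongest signal 135), at IV:10943613-10950986 near Y69E1A.1 (302) and at IV:11070877-11075502 near Y5F2A.4 (90.9). The last combines a 39-base repeat in 2 regions with another of 9 bases.

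Clusters of 2 from the 69 included IV:14779308-14780124, whose peak (302; 147 and 193) was 583 bp from the noncoding RNA gene Y47G6A.34 and in the promoter window of the small nucleolar RNA gene Y57G11C.1145. The other region of that pair differed between replicates, with 6.56 and 51.3. A pair at X:14908070-14909314 near the noncoding RNA gene Y70D2A.5 had a strongest signal of 119.5 (68.3 and 41.6 in the replicates). The cluster on IV with the peak near Y54G2A.48 also held a region in a coding exon of clec-80, a gene of the C-type lectin family (IV:2824999-2825294, 85.5; 22.4 and 41.3), with no tandem repeat and 1 place in the genome.

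**Figure D3:**
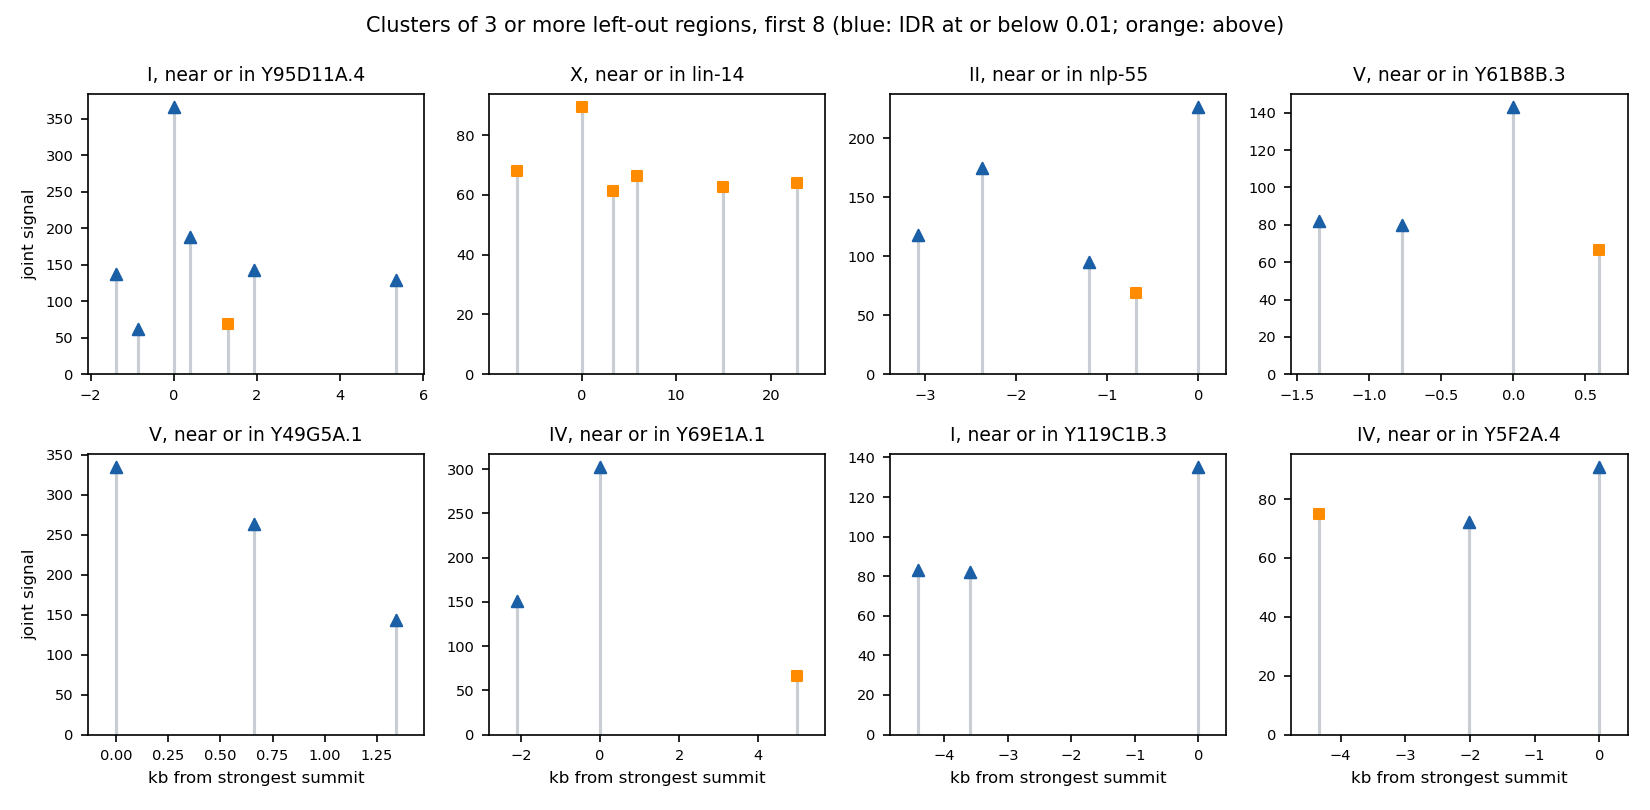
Position of left-out regions (kb from the strongest summit of the cluster) against joint signal in the first 8 clusters by number of regions; each stem is a region, blue triangles met an IDR of 0.01 and orange squares did not. In 7 of the 8 panels the strongest region is blue, and the panel of lin-14 on X holds 6 orange regions of 61.5 to 89.4.

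Single regions from the 69 that were not part of a cluster included X:11785676-11785971 near Y102F5A.1 (323; 159.8 and 166), IV:12318950-12319245 near F19B6.9 (179; 84.5 and 99), V:12509967-12510262 near T28H10.2 (170.3; 110.3 and 75.1) and I:934030-934325 near nas-30, a gene for an astacin-type protease (164; 93.9 and 77.2). III:8863030-8863325, near K01F9.6, stood out by its replicates, with 42.4 in replicate 1 and 125 in replicate 2 for a joint signal of 167. It was not soft-masked at all and repeated itself at a distance of 198 bases with 88.5% of bases matching. It aligned to 1 place, in which adjoining copies are merged.

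The 11 regions of the 69 that were not tandem were of several kinds. In 6 of them the self-match was between 46.1% and 59.2%, and they were IV:3366882, IV:12318950, I:10952763, V:264889, X:292032 and X:1643460 by their starts. The intron of usp-39, a gene of a ubiquitin protease family, held II:2570737-2571032 with 51.2% and a joint signal of 108, and it was the only one of the 69 with no match in the ranking of replicates. A pair lay at the array of 5S ribosomal RNA and SL1 spliced leader genes, V:17122041-17122336 at rrn-4.2 and sls-1.10 (96.9; 33.9 and 58.4) and V:17126842-17127137 at sls-1.1 (69.1; 21.1 and 45.6). These aligned to 15 and 7 places, and this array is itself a tandem repeat with a unit longer than the 300 bases searched. In a wider search, of distances up to 2000 bases within 6000 bases, V:17122041-17122336 had a self-match of 60.2% at 976 bases. The tandem limit was applied only to the shorter search, so it was counted here as not tandem. The others were the clec-80 exon and an exon of mdt-29, which encodes a Mediator subunit.

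The mdt-29 region, III:13778263-13778558, lay 5391 bp from the end of chromosome III and had a joint signal of 96.6, with 29.6 and 56.5 in the replicates. Its neighbour in a coding exon of pot-3, a gene of the family of telomere end-binding proteins, did not meet the threshold. That region, III:13780676-13780971, had a joint signal of 73.6, replicate signals of 12 and 4.64, and an IDR of 0.615. These genes are named because of their values.

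Most of the 69 lay away from genes. By summit, 52 were intergenic, 11 were at promoters (1000 bp upstream to 200 bp downstream of a 5′ end), 5 in coding exons and 1 in an intron. The share at promoters was 15.9%, against 37.1% of the 167, 58.2% of listed strong regions and 33.3% of weaker ones, and only 2 of the 11 were at a protein-coding gene. The median distance to a 5′ end was 2561 bp for the 69, 902 bp for the 167, 417 bp for listed strong regions and 1006.5 bp for weaker ones. Nearest genes of the 52 intergenic regions were protein-coding in 36 cases, noncoding RNA genes in 8 and pseudogenes in 4.

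Of the 5 coding exon regions, 3 lay in exons that were themselves tandem. ZC247.1 held I:10270692-10270987 with units of 231 bases (150.3; 72.8 and 87.8), and a second left-out region in the same gene did not meet the threshold (I:10266734-10267029, 69.6; 27.2 and 47.5). Y8A9A.2 and ZC178.2 both had units of 60 bases, at II:3796529-3796824 (47.9 and 16.6 in the replicates) and V:8699609-8699904 (22.9 and 36.3). All 3 unit lengths are whole numbers of codons.

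Gene groups were counted by gene body or promoter window, with the 2354 weaker regions as background. Small nucleolar RNA genes held 1 of the 69, 8 of the 167, 17 of the 273 listed strong regions and 11 of the 2354. Transfer RNA genes held 0, 4, 22 and 13 of these sets. Pseudogenes held 3, 4, 4 and 104, and small nuclear RNA or spliced leader genes 2, 2, 3 and 5. Most of these counts are small, and pseudogenes were a larger share of the weaker regions than of the 236, where they held 7. Ribosomal protein genes held 0, 2 (rps-1 and rps-19), 10 and 5, and collagen genes 0, 4 (col-20, col-75, col-175 and col-176), 3 and 7. Ribosomal RNA genes held 1 of the 69, at rrn-4.2, and none of the other sets, and piRNA genes 0, 3, 6 and 89. Histone, small heat shock and HSP70 genes and the svh-5 and JNK pathway held none of the 236, and no ranked region lay off the 6 nuclear chromosomes.

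The 167 regions with IDR above 0.01 had their summits in gene bodies in 69.5% of cases, against 47.6% for listed strong regions and 71.3% for weaker ones. Coding exons held 26.9% of the 167, 11.4% of listed strong regions and 22.3% of weaker ones. In these shares, in the share at promoters and in the distance to a 5′ end, the 167 were nearer to the weaker regions than to the listed ones. Other measures went the other way. Median GC content was 41.9%, against 42.6% for listed and 37.5% for weaker regions. The median absolute log2 ratio between replicates was 0.47, against 0.40 and 0.79. The share in the X stretch described below was 29.9% for the 167, against 28.2% and 2.34%. That share was in part built in, since the stretch was found in these data by its raised signal. By count, summits of the 167 lay at promoters in 62 cases, in coding exons in 45, in introns in 34, in other exons in 4 and between genes in 22. Only 8 were in a cluster with one of the 69. Of the 167, 54 were within 20 kb of a listed summit (32.3%), against 5 of the 69 (7.25%) and 215 of 2354 weaker regions (9.13%). The X stretch held 50 of the 167 and 77 listed strong regions. Of their 10 tandem regions, 6 were in clusters named above, and they were I:10948720, II:8291713, V:17311149, IV:11070877, I:10266734 and X:14908070 by their starts.

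The largest cluster without a region from the 69 was at lin-14, a regulator of the timing of larval development (X:11474505-11504468, 6 regions over 29964 bp). A coding exon of lin-14 held its peak, X:11481346-11481641, with 89.4 in the joint ranking and 70.6 and 30.3 in the replicates, and the printed sequence there has no repeat. The 6 joint signals were 67.9, 89.4, 61.5, 66.4, 62.6 and 64.1. Replicate 1 gave 31.4, 70.6, 5.83, 18.1, 41.3 and 37.1, and replicate 2 gave 42.4, 30.3, 39.9, 32.6, 20.8 and 23.7, so the order of the regions differed between replicates. The span also held 2 listed regions. At nra-3, whose product associates with nicotinic receptors, 3 regions (X:9926809-9931345) had joint signals of 68, 67.8 and 60.2.

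Chromosome X held 79 of the 236 left-out regions, or 4.46 per Mb, and the autosomes 157, or 1.9 per Mb. The excess lay in one stretch, X from 9.1 to 11.6 Mb, which holds 2.38% of all ranked regions. That stretch was found in these data as the longest run of 100 kb bins with raised median signal. Those medians used ranked regions with IDR above 0.01, so a surplus of the 167 there was built in. The stretch held 52 left-out regions (20.8 per Mb) and 77 listed strong ones (30.8 per Mb). The rest of X held 27 left-out regions (1.77 per Mb). All but 2 of the 52 were from the 167. The 69 were spread more evenly, at 0.788 per Mb on the rest of X, 0.8 in that stretch and between 0.508 (III) and 0.743 (IV) on autosomes. Both gene clusters named last lay in the stretch.

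**Figure D4:**
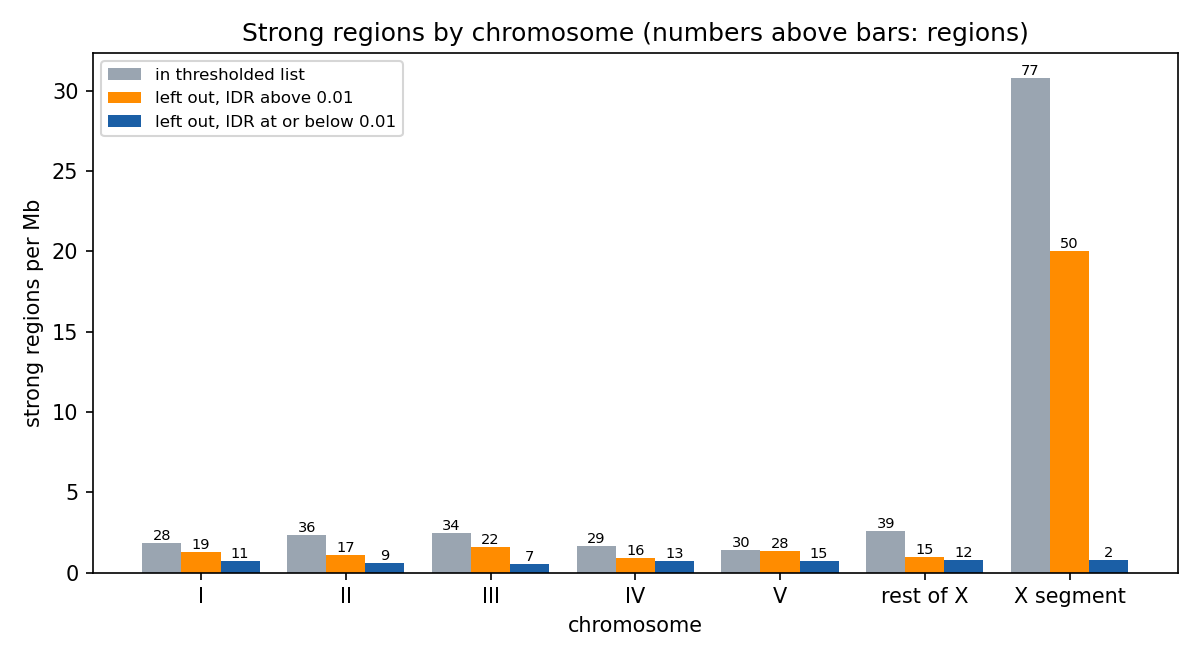
Strong regions per Mb by chromosome, with X divided into the stretch from 9.1 to 11.6 Mb (X segment) and the rest; bars are 3 sets of regions and the numbers above them are counts. In the X segment there are 77 listed regions, 50 left out with IDR above 0.01 and 2 left out with IDR at or below 0.01.

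In the list that ranks the replicates against each other, 232 of the 236 left-out regions had a match, 68 of the 69 and 164 of the 167. Replicate 1 gave the 69 a lowest signal of 3.39, a median of 55.3 and a highest of 994, and replicate 2 gave 16.6, 58.5 and 1200.1. Medians for the 167 were 26.4 and 31.1, those of listed strong regions 36.9 and 40.1, and those of all 114284 ranked regions 9.93 and 11.4. In both replicates the median of the 69 was the highest of these. In both replicates at once, 55 of the 68 lay above the 99th percentile of all regions (80.9%), against 20 of 164 (12.2%) and 143 of 272 listed ones (52.6%). The replicates also made the joint signal by which regions were chosen, and the joint IDR that splits the 69 from the 167. Since a low IDR goes with a high rank, higher levels in the 69 than in the 167 are in part built in. All these levels are description.

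Replicate 2 was the higher in 156 of the 232 and replicate 1 in 76, and among the 69 in 52 and 16. It was the higher in 153 of 272 matched listed strong regions and in 1145 of 2025 matched weaker ones. Over all matched regions the median of replicate 2 was also the higher, and no scaling between replicates is stated. The median of the absolute log2 ratio between replicates was 0.40 for the 69, 0.47 for the 167, 0.40 for listed strong regions and 0.79 for weaker ones. Differences of more than 2-fold were found in 43 of 272 matched listed strong regions and 783 of 2025 matched weaker ones. Of the 68, 11 differed by more than 2-fold, 10 of them higher in replicate 2. The widest gap was at X:7077752-7078047, with 3.39 in replicate 1 and 52.9 in replicate 2, and its neighbour X:7078900-7079195 had 33.9 and 36. The one that was higher in replicate 1 was the Y8A9A.2 exon.

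**Figure D5:**
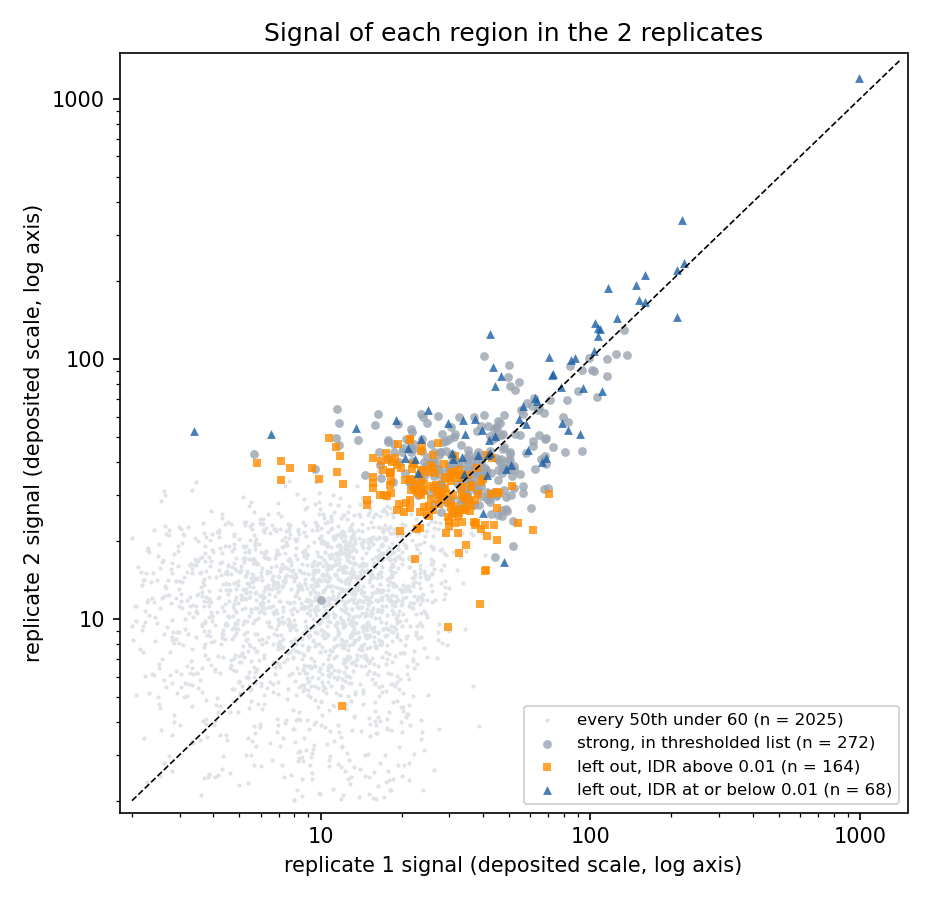
Signal of each region in replicate 1 against replicate 2 (both log axes, deposited scale) for left-out, listed and weaker regions with a match in the ranking of replicates; the dashed line marks equal values. The 68 left-out regions with IDR at or below 0.01 reach 994 and 1200.1 and have medians of 55.3 and 58.5, above the 26.4 and 31.1 of the 164 with IDR above 0.01.

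The same absence was found in every pair of lists. In the ranking of replicates, 71 of the 236 had an IDR of 0.01 or less, against 0.212% of all its regions, and 56 of these were from the 69 and 15 from the 167. At 0.05 (0.61%) the count was 145. That ranking had 242 regions at 0.01 or less, of which 182 were in the conservative list made from it and 60 were not, and 57 of the 60 overlapped the 69. In the ranking of replicate 1, 107 regions met 0.01 (0.128%) and 37 of them were not in its own list, 35 of those on the 69. In replicate 2, 118 met it (0.172%) and 47 were not listed, 42 of those on the 69. The conservative list and the lists of replicates 1 and 2 held 0, 0 and 0 of the 69. Regions that met 0.01 lay on 56 of the 69 in the ranking of replicates, on 34 in that of replicate 1 and on 42 in that of replicate 2. The others of the 69 had no region that met the threshold there.

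Some of the 167 did enter other lists. The conservative list, which overlaps 0.163% of joint ranked regions, held 13 of them. The lists of replicates 1 and 2, which overlap 0.105% and 0.103% of their own rankings, held 4 and 1. Those 5 were both lin-14 regions at X:11474505 and X:11481346, the promoters of the small nucleolar RNA gene W03C9.9 (II:11960695-11960990, 79.6; 61.1 and 21.9) and of snr-4, a gene of an Sm protein of the spliceosome (V:11980084-11980379, 66; 45.1 and 30.7), and, in replicate 2, the promoter of Y15E3A.13 (X:15353799-15354094, 68.3; 19.4 and 47). The summit of V:11980084-11980379 also lay at the small nuclear RNA gene T11F9.15 and the piRNA gene 21ur-10927. These genes are named because of their lists.

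The authors' file listing names 1 more input for each thresholded list than for the ranked list it came from, 4 against 3 for the joint and conservative lists and 3 against 2 for each replicate. What that input holds is not given in the sources used here, and its part in the absence of the 69 was not tested. In the joint ranking another 6 regions met the threshold with signals under 60 and were not listed, 1 of them inside the cluster of 7 on chromosome I (I:10952352-10952647, 53.4).

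Neither gene that the labels place on the transgene held a left-out region. The highest of 15 ranked regions within svh-5 (X:15369974-15377824, WBGene00006462, minus strand) had a signal of 58, just under the limit of 60, and an IDR of 0.0187, and the nearest left-out region, at the Y15E3A.13 promoter, was 16027 bp away. Within unc-119 (III:10902641-10908935, WBGene00006843) the highest of 9 had a signal of 32.3 and an IDR of 0.224. Its nearest left-out region was 183010 bp away.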

How the data were processed

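Chromatin immunoprecipitation signal was analysed in 2 biological replicates of 1 group. The starting material was the authors' 8 deposited region lists on ce11: 4 rankings (replicate 1, replicate 2, a ranking of the replicates and a joint one), each with its thresholded list. Which aligner and peak caller were used is not given in the sources used here. Signal, as deposited by the authors, has an unstated scale and was compared only within a list. The score column deposited by the authors rises with reproducibility and sets no result here. The −log10 of the global IDR deposited by the authors was turned back into an IDR. Replicate signals came from the ranking of replicates, where the coordinates of the first set recurred in the list of replicate 1 (80659 of 114284) and 0 times in that of replicate 2, and those of the second in replicate 2 (61427) and 0 times in replicate 1. Each left-out region took the row it overlapped most.

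Coordinates are 1-based, and gene models are those of Ensembl release 115. Sequences and soft-masking came from RefSeq, and alignments from blastn 2.17.0 without masking, e-value 1e-5. The period is the shortest distance whose self-match reaches 0.9 of the highest. Other steps used Python 3.11.15, NumPy 2.4.6, pandas 2.3.3, SciPy 1.17.1 and matplotlib 3.10.9. The scripts' overlap, cluster and repeat steps were tested on simulated data. Named genes are those whose body or promoter window holds the summit of a cluster's strongest region, or else the nearest 5′ end, for at most 15 clusters of 2 or more and 10 single regions, beside svh-5 and unc-119. Other names were chosen after their values were seen. tag-97 is taken to be svh-5. Regions, families and lists were chosen with earlier results of these data known. Regions are not replicates, so no test was made over them; intervals on shares are exact binomial ones.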

Additional observations from a re-analysis of the deposited data

How the results depend on the processing

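Limits on signal moved several values. With signals of 50 or more there were 1202 left-out regions in place of 236, and with 80 or more 59. The share at promoters, 30.9%, became 10.2% at 80 or more, 21.6% with a narrower window (500 bp before to 100 bp after the 5′ end) and 19.5% with protein-coding genes only. The share aligning to 2 or more places, 41.5%, became 89.8% at 80, 27.4% at 50, 29.2% at 95% identity, 48.7% with alignments of 50 bp and 50.5% without the X stretch. Median signals, 30.4 in replicate 1 and 34.9 in replicate 2, became 67.2 and 69.7 at 80 and 23.3 and 28.8 at 50. The median over both, 30.9, was 30.4 to 34.9 with either replicate left out. The median ratio of replicate 1 to 2 moved from 0.865 to 0.994 after scaling by each replicate's median. An IDR of 0.05 (1.04% of all regions) took in 211 left-out regions and one of 0.001 (0.077%) took in 39, in place of 69. In the ranking of replicates 0.05 (0.61%) took in 145 in place of 71. The count in a replicate's own list, 5, was 1 to 4 with either left out. The tandem share of the 69 fell from 84.1% to 66.7% with a self-match of 70%, and the share on X from 33.5% to 14.7% without the X stretch; these, the X stretch and the other tandem limits were chosen after seeing the data. The other 23 settings moved no value past its interval or by more than 1.5 times. No paired analysis was possible because there is only 1 group. Read depth is unknown, and no control signal was analysed.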
